A study of Homo sapiens with 16 samples.

Results

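The ATF4 amino acid response was followed across 40 genes in the human osteosarcoma line U2OS. The genes were taken by name: ATF4, its targets in amino acid synthesis, amino acid transport and stress signalling, and 10 cytosolic aminoacyl-tRNA synthetases. All 40 were found among the 58735 genes of the deposited expression table, which gives fragments scaled to exon length and sequencing depth (FPKM). Of these, 39 averaged 1 FPKM or more and were tested; STC2, a secreted stress glycoprotein, was listed at 0.0666 to 0.332 FPKM and was not tested. RNA was sequenced from 8 groups of 2 libraries, R1 and R2. Cells had been transfected 48 h earlier with an siRNA against the histone methyltransferase SETD2 (siSETD2) or with a non-targeting siRNA (siNT). Cells of each siRNA then had 4 h of 2 mM hydroxyurea (HU) with 2 µM VE-822, of HU alone or of VE-822 alone, or were left untreated. HU starves replication forks of deoxynucleotides by inhibiting ribonucleotide reductase, and VE-822 inhibits ATR, the kinase that responds to stalled forks. The study asked how SETD2 loss alters transcription under replication stress. No wild-type or untransfected cells were among the groups, and 1 siRNA label per target was given. The labels do not say whether R1 and R2 were separate cultures, so p-values measure the spread between these libraries only, which may be technical.

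ATF4 is a bZIP transcription factor whose mRNA is translated better when kinases phosphorylate the initiation factor eIF2. GCN2 does so in amino acid shortage and PERK in endoplasmic reticulum stress. ATF4 then binds DNA with C/EBP-type partners at a composite element and raises genes that make, import and charge amino acids. It also raises feedback genes such as TRIB3, which restrains ATF4, and PPP1R15A, which brings phosphatase to eIF2. Transcript levels, as measured here, do not show ATF4 protein or its activity.

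The composite element is often written TGATGNAA, read on either strand. It was searched in RefSeq promoters (GRCh38.p14, 250 bases before to 50 bases after the start, 300 in all), which were matched for 34 of the 40 genes. The letters occurred in 9 of the 34 (26.5%), against 2.02% of the 13144 promoters of genes tested and 3.62% of all 35116 promoters. Other ATF4 targets, not among the 40, held them in 6 of 19 promoters (31.6%). Genes of eIF2 and its kinases, upstream of ATF4, held them in 1 of 13 (7.69%). The synthetases held most of them, with 5 of 9 (AARS, MARS, NARS, IARS and CARS), against 1 of 7 among other cytosolic synthetases. CHAC1, ASNS, SLC3A2 and SLC7A1 were the other 4. None of the 6 transcription factor promoters, ATF4 and DDIT3 among them, held the letters in this window, which says nothing of sites elsewhere. A set of 6 such stretches is shown, 5′ to 3′ along the gene's strand with the element in capitals, because their genes differ in the tests below. With the replicate block described below, CHAC1, ASNS and SLC7A1 rose when VE-822 and HU were given together, against untreated cells. AARS, IARS and SLC3A2 did not pass that test, nor did MARS, NARS and CARS, which also held the letters. SLC7A1 was not called with a block over all 8 groups (adjusted p = 0.0908). Whether the letters go with the calls was not tested.
CHAC1 (chr15:40953236-40953295, plus strand): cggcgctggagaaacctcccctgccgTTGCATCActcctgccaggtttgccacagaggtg
ASNS (chr7:97872443-97872502, minus strand): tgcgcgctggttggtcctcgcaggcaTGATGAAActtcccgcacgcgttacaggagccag
SLC7A1 (chr13:29595663-29595692, minus strand): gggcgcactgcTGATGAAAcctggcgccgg
AARS (chr16:70289660-70289719, minus strand): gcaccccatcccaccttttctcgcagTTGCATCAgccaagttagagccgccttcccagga
IARS (chr9:92293677-92293736, minus strand): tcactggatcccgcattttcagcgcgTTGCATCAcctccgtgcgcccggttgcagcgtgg
SLC3A2 (chr11:62881725-62881748, plus strand): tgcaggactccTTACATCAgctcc
The element began at position -209 in CHAC1, -187 in AARS, -68 in ASNS and -13 in IARS, counted from the start. In SLC7A1 and SLC3A2 it lay after the start, from positions 8 and 38. ASNS and SLC7A1 carried it as written, and CHAC1, AARS, IARS and SLC3A2 in the reverse complement, TTNCATCA.

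Levels of the 40 genes in FPKM, which is scaled to exon length, spanned a wide range. Amino acid transporters stood highest: SLC7A5 averaged 176 FPKM over the 16 libraries and its heavy chain SLC3A2 145 FPKM. SLC38A2, a neutral amino acid transporter, averaged 126 FPKM and the glutamine transporter SLC1A5 112 FPKM. ATF4 itself (chr22:39519695-39522685, GRCh38) averaged 90.4 FPKM, above the other transcription factors, from CEBPB at 53.7 to JDP2 at 2.83 FPKM. The synthetases lay between 10.4 FPKM for CARS and 81.04 FPKM for EPRS. Asparagine synthetase, ASNS, a standard marker of this response, was low at 1.19 FPKM, close to the minimum for testing, as was the mitochondrial folate enzyme ALDH1L2 at 1.31 FPKM. Across the libraries the highest level was 5.96 times the lowest for CHAC1, 5.83 times for CTH and 4.58 times for DDIT4, but 1.22 times for MARS, the methionyl-tRNA synthetase. Reads shared with copies add uncertainty to some levels: the annotation names 7 pseudogenes of MTHFD2 and 4 each of ATF4, ASNS and PSAT1. ASNS also shares 1985 of its 4455 exon bases with AC079781.5 on the same strand, which was listed at no more than 0.0367 FPKM. How reads in shared exons were counted is not given in the sources used here, so the low level of ASNS is itself uncertain.

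The libraries held 22310806 to 31101932 fragments and 26548 to 29191 detected genes. SETD2 stood at 2.01 to 4.62 FPKM in the 8 siSETD2 libraries and at 7.34 to 9.25 FPKM in the 8 siNT libraries. Of 6 osteoblastic and mesenchymal markers, 4 had a mean of at least 1 FPKM (summed level 238 to 402 FPKM), while COL1A2 and ALPL stayed below 0.5 FPKM in every library. Epithelial markers summed to 4.17 to 11.7 FPKM and blood cell markers to 0.957 to 3.40 FPKM. The 4 libraries given VE-822 alone stood apart on the first principal component (46.1% of variance), at 29.5 to 35.3, against -33.3 to -20.5 for the other R1 and 0.86 to 7.23 for the other R2 libraries. Outside VE-822 alone, in 6 groups, the difference R1 minus R2 correlated between every pair of groups, so a fit with the replicate number as a block in these 6 groups (the replicate block) is given beside the fit without it wherever it changes a call. The test was limma on log2(FPKM + 1) over 13088 genes, with Benjamini-Hochberg adjustment and a threshold of 0.05, and every fold change below is a difference on that log2 scale. SE and adjusted p are those without the block unless the block is named, and a pair of values gives R1 and then R2.

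Adding VE-822 to HU went with higher levels of most of the 39 genes tested. Relative to HU alone, 28 were higher in all 4 pairs of libraries with the same siRNA and replicate number, where 17.7% of all genes were. Only EPRS was lower in all 4, where 16.5% of all genes were. The median log2 fold change of the 39, averaged over the siRNAs, was 0.248, against 0.0138 over all genes, and 33 were above 0. In bulk RNA, a shift in how many cells express a gene and in how much each expresses cannot be told apart. With the replicate block 5 rose and none fell: ATF4, DDIT3, JDP2, DDIT4 and PSAT1, where 0.703% of all genes rose. Only JDP2 was also called with a block over all 8 groups (adjusted p = 0.0309) and with a block fitted without the VE-822-alone libraries (adjusted p = 0.0396), which this comparison does not use; the adjusted p-values of the other 4 lay between 0.0697 and 0.161 in these fits. Without the block limma called none of the 39 and 1 gene in all (0.00764%), and voom on recovered fragments called none. Of the 39, 16 had an unadjusted p under 0.05 in limma. Counts before adjustment, here and below, are given without the share of all genes under 0.05. They therefore do not show whether the 39 differ from other genes.

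**Figure D1:**
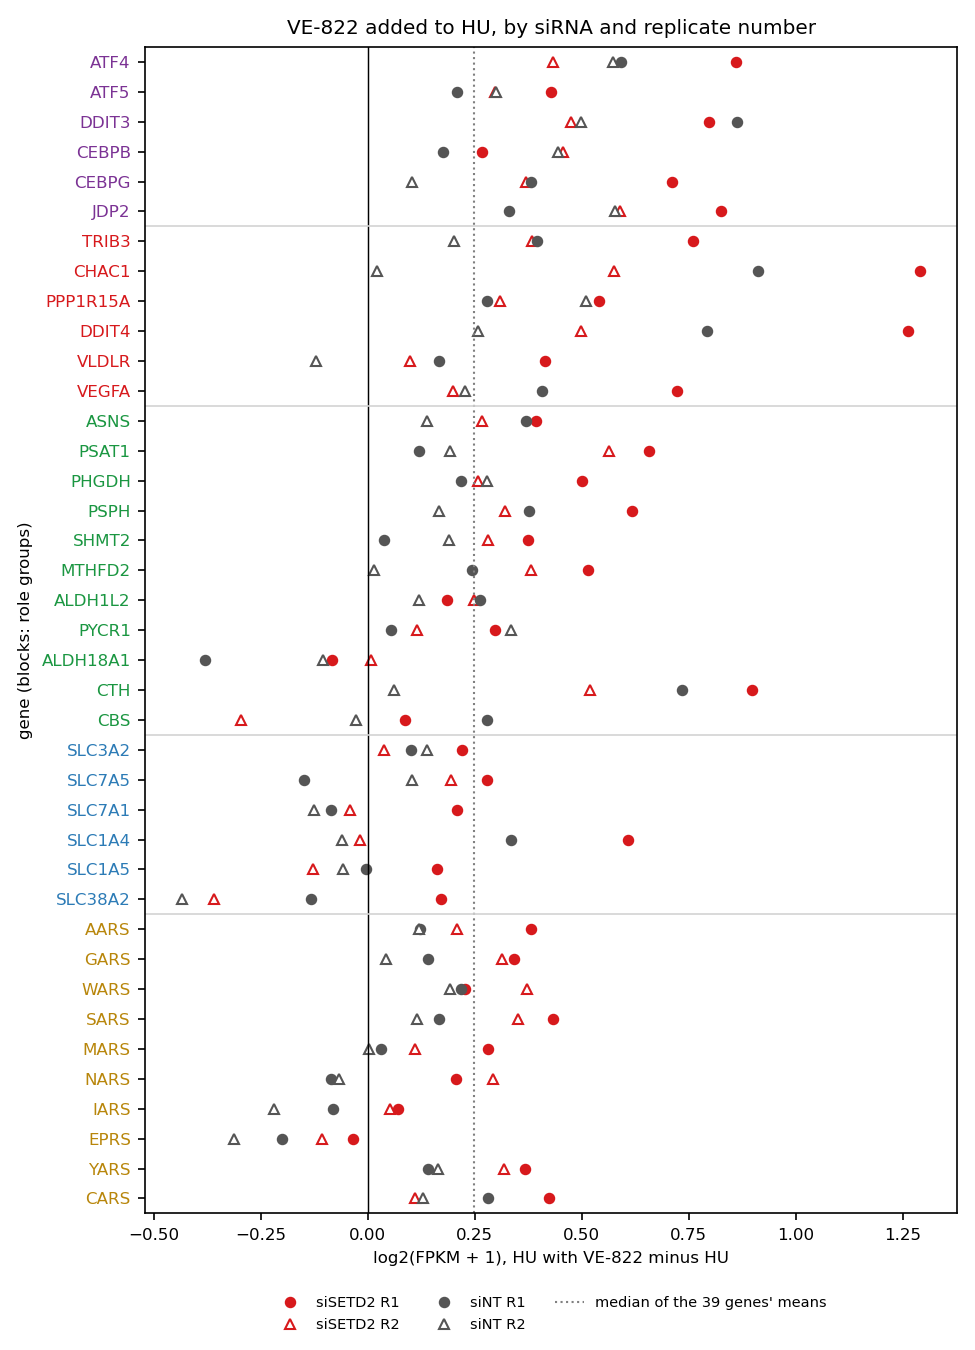
Difference in log2(FPKM + 1) between HU with VE-822 and HU alone for each of the 39 genes, in each of the 4 pairs (red, siSETD2; grey, siNT; filled circles, R1; open triangles, R2). The dotted line marks the median of the genes' mean differences, 0.248; the points of the 6 transcription factors all lie to the right of 0, and those of the transporters lie on both sides of it.

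All 6 transcription factors were higher in all 4 pairs, with a median of 0.49. ATF4 had 129 and 119 FPKM in siSETD2 and 95.3 and 119.8 FPKM in siNT cells given HU with VE-822, against 70.7 and 87.5 FPKM in siSETD2 and 62.8 and 80.2 FPKM in siNT cells given HU. All 4 libraries with VE-822 added lay above all 4 with HU alone, whichever the siRNA. The log2 fold change of ATF4 was 0.62 (SE 0.136, adjusted p = 0.274), with an adjusted p of 0.0443 under the replicate block. DDIT3 (chr12:57516588-57521737), also called CHOP, is a C/EBP family factor that ATF4 induces in prolonged stress. DDIT3 had 34.4 and 18.4 FPKM in siSETD2 and 28.4 and 20.5 FPKM in siNT cells given HU with VE-822, against 19.4 and 12.96 FPKM in siSETD2 and 15.2 and 14.2 FPKM in siNT cells given HU. Each library with VE-822 added lay above its own pair, but the groups overlapped, since siSETD2 R1 was high in HU too. DDIT3 rose by 0.66 (SE 0.248, adjusted p = 0.523), and the adjusted p under the block was 0.0443. DDIT3 shares 355 of its 1307 exon bases with MARS on the opposite strand, and no use of strand in counting is given in the sources used here; MARS stood at 0.11 in the same comparison. JDP2, a repressor that dimerises with AP-1 and CHOP family members, was low. JDP2 had 3.35 and 5.01 FPKM in siSETD2 and 2.40 and 3.95 FPKM in siNT cells given HU with VE-822, against 1.46 and 2.99 FPKM in siSETD2 and 1.70 and 2.32 FPKM in siNT cells given HU. R2 was above R1 in every one of these groups, and every pair differed upward. The treatments did not overlap within either siRNA. They overlapped across the siRNAs, since siNT R1 with VE-822 added lay below siSETD2 R2 in HU. JDP2 rose by 0.58 (SE 0.210, adjusted p = 0.509), and 0.0302 was its adjusted p under the block. CEBPG, a DNA-binding partner of ATF4, ATF5, a close relative of ATF4 that is also under translational control, and CEBPB did not pass, at 0.39, 0.31 and 0.34.

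Among the feedback and stress effectors, 5 of the 6 tested were higher in all 4 pairs and the median was 0.42. DDIT4 (chr10:72273920-72276036), or REDD1, restrains the growth kinase complex mTORC1. DDIT4 had 15.8 and 16.8 FPKM in siSETD2 and 7.53 and 8.71 FPKM in siNT cells given HU with VE-822, against 6.01 and 11.6 FPKM in siSETD2 and 3.93 and 7.13 FPKM in siNT cells given HU. The siSETD2 libraries with VE-822 added stood above all others. The siNT libraries with VE-822 added lay above those of siNT in HU, but below siSETD2 R2 in HU. The fold change of DDIT4 was 0.70 (SE 0.264, adjusted p = 0.518), with an adjusted p of 0.0443 under the replicate block. DDIT4 shares 847 of its 2058 exon bases with DDIT4-AS1 on the opposite strand, which is listed at 0 in every library. As the counting of reads in shared exons is not given, the level of DDIT4 is uncertain too. CHAC1 (chr15:40952962-40956519), which breaks down glutathione, had a difference of about the same size that did not pass. CHAC1 had 8.11 and 5.67 FPKM in siSETD2 and 5.22 and 3.43 FPKM in siNT cells given HU with VE-822, against 2.72 and 3.48 FPKM in siSETD2 and 2.30 and 3.36 FPKM in siNT cells given HU. The R1 pairs were furthest apart, and the siNT R2 pair hardly differed. The fold change of CHAC1 was 0.70 (SE 0.156, adjusted p = 0.274), and its adjusted p under the block was 0.0508. TRIB3, the pseudokinase that restrains ATF4, stood at 0.43, PPP1R15A (GADD34) at 0.41, the angiogenic factor VEGFA at 0.39 and the lipoprotein receptor VLDLR at 0.14, and none of these passed either fit.

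Of 11 genes of amino acid and one-carbon synthesis, 9 were higher in all 4 pairs, and the median was 0.29. PSAT1 (chr9:78297143-78330093), the aminotransferase of the serine pathway, rose with the replicate block. PSAT1 had 16.7 and 18.8 FPKM in siSETD2 and 14.5 and 15.8 FPKM in siNT cells given HU with VE-822, against 10.2 and 12.4 FPKM in siSETD2 and 13.2 and 13.7 FPKM in siNT cells given HU. The groups did not overlap, and the differences were larger in siSETD2 than in siNT cells. PSAT1 rose by 0.38 (SE 0.0959, adjusted p = 0.284), with an adjusted p of 0.0322 under the block. The other serine pathway enzymes PHGDH and PSPH stood at 0.31 and 0.37, and the mitochondrial folate enzymes SHMT2, MTHFD2 and ALDH1L2 at 0.22, 0.29 and 0.20. ASNS stood at 0.29, the proline enzyme PYCR1 at 0.20 and CTH, which makes cysteine from cystathionine, at 0.55. None of these passed either fit. ALDH18A1, which starts proline synthesis from glutamate, and CBS, which makes cystathionine, were the exceptions at -0.14 and 0.0103. CBS has a near-identical copy, CBSL, listed at 0.295 to 1.15 FPKM, so its own level is uncertain.

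The transporters were mixed: SLC3A2, 1 of the 6, was higher in all 4 pairs, and the median was 0.050. SLC3A2, SLC7A5 and SLC1A4 stood at 0.13, 0.11 and 0.22, and SLC7A1, SLC1A5 and SLC38A2 at -0.0111, -0.00734 and -0.19. Synthetases were higher in all 4 pairs in 7 of 10 cases and had a median of 0.21. SARS, WARS, YARS, CARS, AARS and GARS lay between 0.21 and 0.27, and MARS, NARS, IARS and EPRS at 0.11, 0.0864, -0.0445 and -0.16. The 10 other cytosolic synthetases, which charge tRNAs with the same chemistry, had a median of -0.0422, with 3 above 0 and 1 higher in all 4 pairs. Of 23 other ATF4 targets tested, 18 were above 0 with a median of 0.14, and 2 rose with the block, the stress regulator NUPR1 at 0.72 (adjusted p = 0.0106) and the aspartate aminotransferase GOT1 at 0.38 (adjusted p = 0.0443). Of 15 eIF2 subunits, kinases and regulators upstream of ATF4, 8 were above 0, the median was 0.0297, and none was called in either fit.

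The differences between HU with VE-822 and HU were larger in siSETD2 than in siNT cells for most of the 39 genes, yet no gene passed the test of that difference. Median differences of the 39 were 0.394 (R1) and 0.282 (R2) in siSETD2 cells and 0.209 (R1) and 0.120 (R2) in siNT cells, against medians over all genes of 0.0259, 0.0246, -0.0212 and 0.00505. The difference of the responses, siSETD2 minus siNT, was above 0 for 37 of the 39, with a median of 0.188 against 0.0399 over all genes. It was also above 0 for 14 of the 15 upstream genes and 8 of the 10 other cytosolic synthetases, with medians of 0.144 and 0.141. This direction was thus not particular to the 39. Among the 39 the difference of the responses was largest for CHAC1, at 0.47 (SE 0.312). limma called 0 of the 39 for it, with or without the block, and 0% of all genes; 1 of the 39, PSAT1, had an unadjusted p under 0.05, while voom made no call. The same test for the responses to HU and to VE-822 alone also called 0 of the 39 in either fit and by voom, with 0 and 2 (ASNS and EPRS) below 0.05 before adjustment without the block. The share of fragments from mitochondrial genes was 10.9% and 12.4% in siSETD2 and 15.6% and 15.7% in siNT cells given HU with VE-822; its part in these values was not tested.

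Against untreated cells, 17 of the 39 genes rose in HU with VE-822 and none fell with the replicate block, where 4.07% of all genes rose and 3.23% fell. ATF5, JDP2, CHAC1, VEGFA, ASNS, PSAT1, MTHFD2 and WARS were also called with a block over all 8 groups. The same genes were called with a block fitted without the VE-822-alone libraries, which this comparison does not use. ATF4, DDIT3, CEBPG, DDIT4, PHGDH, PSPH, ALDH1L2, CTH and SLC7A1 passed neither fit, with adjusted p-values between 0.0536 and 0.334. Of the 39, 26 were higher in all 4 pairs (15.4% of all genes) and 0 were lower in all 4 (12.8%). The median was 0.34, and 35 were above 0. This comparison shares its HU with VE-822 libraries with the one above. Without the block limma called 0 of the 39 and 5 genes in all (0.0382%), and voom made no call. Before adjustment 21 of the 39 were below 0.05 in limma, a count not set against the share of all genes.

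Transcription factors made up 5 of the 17 that rose. ATF5 had 9.23 to 13.9 FPKM with both drugs, against 5.45 and 6.90 FPKM in untreated siSETD2 and 6.08 and 6.46 FPKM in untreated siNT cells. The groups did not overlap, and the fold change was 0.81 (SE 0.162, adjusted p = 0.0773), with 0.00255 under the block. ATF4 had 95.3 to 129 FPKM with both drugs, against 107 and 83.6 FPKM in untreated siSETD2 and 68.1 and 79.04 FPKM in untreated siNT cells. Untreated siSETD2 R1 was high and made the groups overlap. ATF4 changed by 0.46 (adjusted p under the block 0.0492). DDIT3 had 18.4 to 34.4 FPKM with both drugs, against 26.3 and 12.1 FPKM in untreated siSETD2 and 16.5 and 12.6 FPKM in untreated siNT cells. Untreated siSETD2 R1 again stood out, and DDIT3 changed by 0.59 (0.0256 under the block). JDP2 had 2.40 to 5.01 FPKM with both drugs, against 1.80 and 2.96 FPKM in untreated siSETD2 and 1.41 and 2.26 FPKM in untreated siNT cells. CEBPG had 8.64 to 12.2 FPKM with both drugs, against 9.28 and 6.69 FPKM in untreated siSETD2 and 6.30 and 7.31 FPKM in untreated siNT cells. JDP2 and CEBPG changed by 0.58 and 0.39, with adjusted p-values of 0.0121 and 0.0416 under the block.

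The effectors CHAC1, DDIT4 and VEGFA rose. CHAC1 had 3.43 to 8.11 FPKM with both drugs, against 3.39 and 2.31 FPKM in untreated siSETD2 and 1.72 and 1.88 FPKM in untreated siNT cells. All 4 libraries with both drugs stood above all 4 untreated ones, at the closest 3.43 against 3.39 FPKM. The fold change of CHAC1, 0.97 (SE 0.156, adjusted p = 0.0515) and 0.00756 under the block, was the largest of the 39. DDIT4 had 7.53 to 16.8 FPKM with both drugs, against 6.79 and 11.9 FPKM in untreated siSETD2 and 3.66 and 8.33 FPKM in untreated siNT cells. VEGFA had 9.59 to 12.8 FPKM with both drugs, against 6.99 and 9.46 FPKM in untreated siSETD2 and 6.78 and 8.43 FPKM in untreated siNT cells. VEGFA libraries did not overlap, at the closest 9.59 against 9.46 FPKM, and those of DDIT4 did. VEGFA and DDIT4 changed by 0.44 and 0.63, with 0.0232 and 0.0293 under the block.

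With the replicate block 7 of the 11 synthesis genes rose, where 4.07% of all genes did. All 3 enzymes of the serine pathway were among them. Of these, PHGDH and PSPH were not called with a block over all 8 groups or with one fitted without the VE-822-alone libraries. PSAT1 had 14.5 to 18.8 FPKM with both drugs, against 11.04 and 11.8 FPKM in untreated siSETD2 and 9.83 and 12.1 FPKM in untreated siNT cells. MTHFD2 had 31.04 to 38.7 FPKM with both drugs, against 28.1 and 21.3 FPKM in untreated siSETD2 and 23.4 and 22.8 FPKM in untreated siNT cells. Neither PSAT1 nor MTHFD2 overlapped between the groups, and they changed by 0.51 (SE 0.0959, adjusted p = 0.0678) and 0.53 (SE 0.104, adjusted p = 0.0759), with 0.00474 and 0.0128 under the block. ASNS had 1.21 to 1.70 FPKM with both drugs, against 0.629 and 0.987 FPKM in untreated siSETD2 and 0.672 and 1.13 FPKM in untreated siNT cells. ALDH1L2 had 1.31 to 1.80 FPKM with both drugs, against 0.928 and 1.29 FPKM in untreated siSETD2 and 1.16 and 0.934 FPKM in untreated siNT cells. ASNS and ALDH1L2, both near the minimum for testing, did not overlap either, though ALDH1L2 came close, at 1.31 against 1.29 FPKM. ASNS and ALDH1L2 changed by 0.39 and 0.32 (0.0133 and 0.0355 under the block). PHGDH, PSPH and CTH overlapped between the groups, and their R1 and R2 levels differed widely. CTH had 4.35 to 11.6 FPKM with both drugs, against 6.03 and 3.21 FPKM in untreated siSETD2 and 4.65 and 3.36 FPKM in untreated siNT cells. PHGDH had 7.999 to 14.9 FPKM with both drugs, against 7.32 and 12.6 FPKM in untreated siSETD2 and 6.29 and 10.5 FPKM in untreated siNT cells. PSPH had 5.10 to 8.20 FPKM with both drugs, against 7.01 and 4.02 FPKM in untreated siSETD2 and 5.09 and 3.70 FPKM in untreated siNT cells. CTH, PHGDH and PSPH changed by 0.60, 0.27 and 0.33, with 0.0214, 0.0443 and 0.0360 under the block.

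SLC7A1, the cationic amino acid transporter, and WARS, the tryptophanyl-tRNA synthetase, were the other 2. SLC7A1 had 40.7 to 58.6 FPKM with both drugs, against 28.5 and 43.95 FPKM in untreated siSETD2 and 42.5 and 45.3 FPKM in untreated siNT cells. WARS had 11.9 to 15.5 FPKM with both drugs, against 12.6 and 8.26 FPKM in untreated siSETD2 and 11.9 and 8.33 FPKM in untreated siNT cells. Both overlapped between the groups, and they changed by 0.40 and 0.42 (0.0352 and 0.00969 under the block). Of 23 other ATF4 targets tested, 9 rose and 1, CLGN, fell with the block, and ATF3 rose also without it, by 0.99 (SE 0.123, adjusted p = 0.0267). None of the 10 other cytosolic synthetases and none of the 15 upstream genes was called in either fit. Leaving out untreated siSETD2 R1 took the count without the block to 5 of the 39, a block over all 8 groups gave 8, and values scaled to library totals gave 2 without the block.

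**Figure D2:**
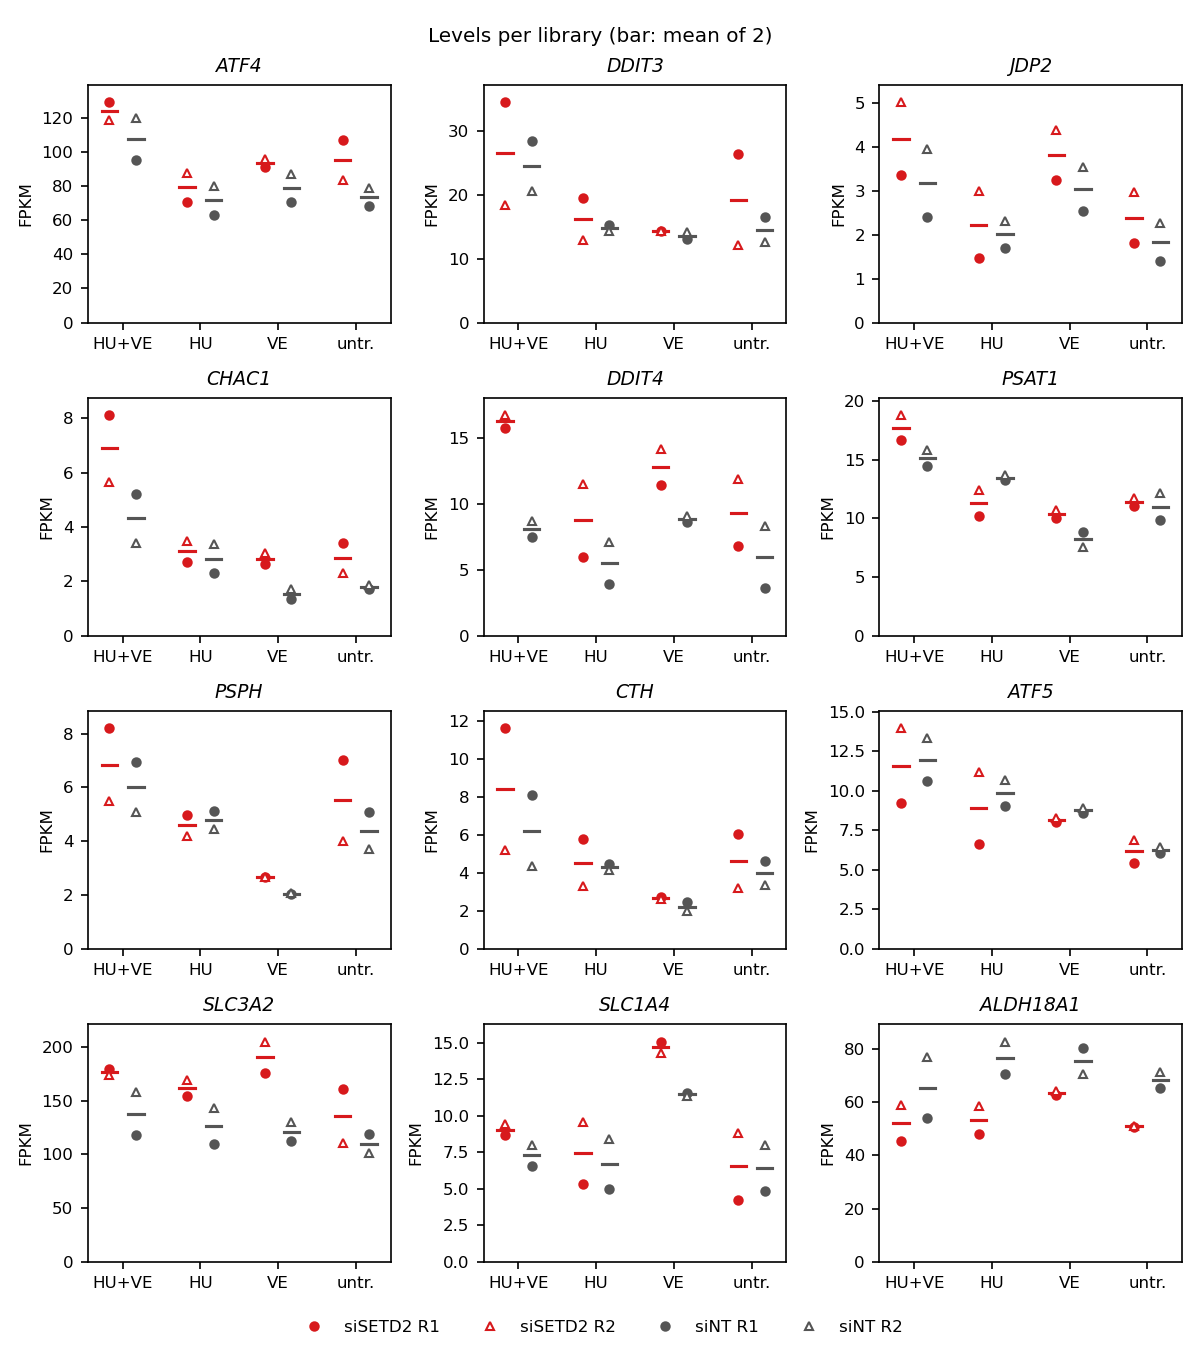
Levels in FPKM of 12 of the genes in all 16 libraries, by treatment (HU+VE, HU with VE-822; VE, VE-822 alone; untr., untreated), with siSETD2 in red left of siNT in grey, R1 as filled circles and R2 as open triangles, and a bar at the mean of 2 libraries. ATF4 and PSAT1 stand higher with HU and VE-822 than with HU alone in every library, PSPH is lowest in VE-822 alone, and the mean of DDIT4 is higher in siSETD2 than in siNT cells in each treatment.

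With HU alone, 1 of the 39 genes was called, and in 1 fit. ATF5 rose with the replicate block, where 0.848% of all genes rose and 0.749% fell (1.6% in all), and no other of the 39 was called. ATF5 had 6.60 and 11.2 FPKM in siSETD2 and 9.03 and 10.7 FPKM in siNT cells given HU, against 5.45 and 6.90 FPKM in siSETD2 and 6.08 and 6.46 FPKM in siNT cells left untreated. All 4 pairs were higher in HU, although siSETD2 R1 in HU stayed within the untreated range. The fold change of ATF5 was 0.50 (SE 0.162, adjusted p = 0.419), with 0.0271 under the block, and its adjusted p was 0.0875 with a block over all 8 groups and 0.0838 with one fitted without the VE-822-alone libraries. ATF5 shares 626 of its 2954 exon bases with NUP62 on the opposite strand, at 12.1 to 14.8 FPKM. Without the block limma called none of the 39 and 14 of all genes (0.107%), 3 of the 39 had an unadjusted p under 0.05, while voom made no call. The median was 0.0429, 25 of the 39 were above 0, 9 were higher in all 4 pairs (13.4% of all genes) and 2, VLDLR and CARS, lower (11.1%). SLC7A1 and SLC38A2 had the next largest differences. SLC7A1 had 46.9 and 60.1 FPKM in siSETD2 and 43.2 and 63.97 FPKM in siNT cells given HU, against 28.5 and 43.95 FPKM in siSETD2 and 42.5 and 45.3 FPKM in siNT cells left untreated. SLC38A2 had 107 and 155 FPKM in siSETD2 and 107 and 169 FPKM in siNT cells given HU, against 77.9 and 108 FPKM in siSETD2 and 87.5 and 132 FPKM in siNT cells left untreated. SLC7A1 and SLC38A2 differed by 0.41 and 0.40 with adjusted p-values of 0.0653 and 0.0930 under the block, and the transporters' median was 0.26, against 0.0031 for the transcription factors. ATF4 and DDIT3 stood at -0.16 and -0.0673. Among the other ATF4 targets ATF3 rose in both fits, by 0.83 (SE 0.123, adjusted p = 0.0313), and SESN2 with the block, by 0.55 (0.0190).

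**Figure D3:**
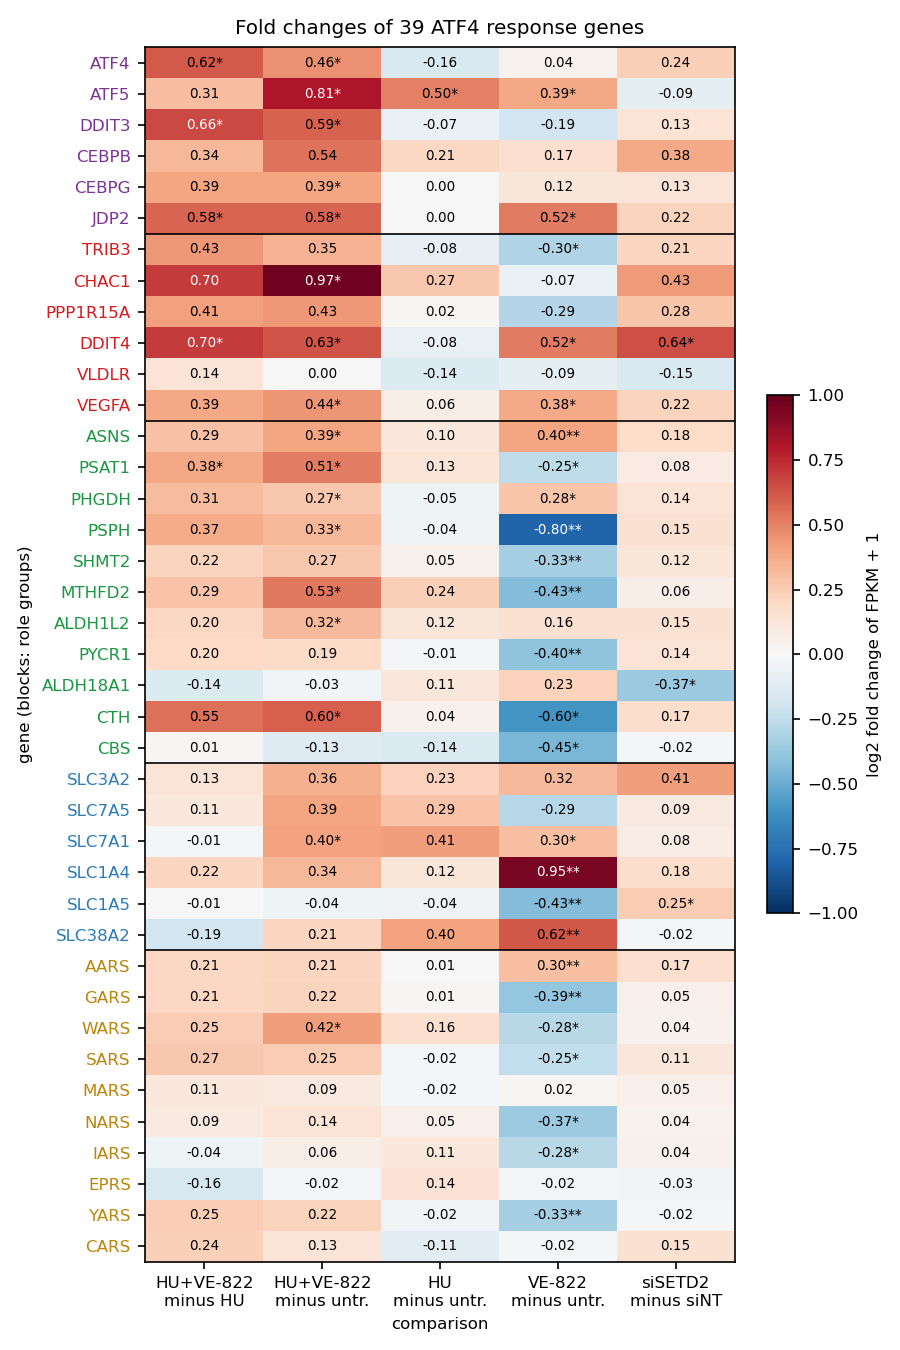
Log2 fold changes of FPKM + 1 for the 39 genes in 5 comparisons, the drug comparisons averaged over the siRNAs and the siRNA comparison over the 4 treatments; blue is lower, red is higher, and black lines part the role groups. A double asterisk marks an adjusted p under 0.05 without the replicate block and a single asterisk a call with the block only; the double asterisks all stand in the column of VE-822 against untreated cells.

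SETD2 siRNA went with few called differences among the 39 genes. Averaged over the 4 treatments, DDIT4 and SLC1A5 rose and ALDH18A1 fell with the replicate block, where 3.88% of all genes were called (1.66% higher and 2.22% lower). Without the block limma called none of the 39 and 17 of all genes (0.13%), while voom made no call. In limma 11 of the 39 had an unadjusted p under 0.05, again without the share of all genes for comparison. The median was 0.13, against -0.0075 over all genes, and 32 of the 39 were above 0. In the 6 pairs of libraries without VE-822 alone, 9 were higher in all 6, where 5.78% of all genes were, and ALDH18A1 was lower in all 6, where 8.77% were. The 9 were CEBPB, CHAC1, DDIT4, VEGFA, SHMT2, SLC3A2, SLC1A5, AARS and CARS.

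DDIT4 was higher in siSETD2 cells in each treatment. It had 15.8 and 16.8 FPKM in siSETD2 against 7.53 and 8.71 FPKM in siNT cells given both drugs, and 6.01 and 11.6 FPKM in siSETD2 against 3.93 and 7.13 FPKM in siNT cells given HU. In VE-822 alone the levels of DDIT4 were 11.5 and 14.2 FPKM in siSETD2 and 8.60 and 9.13 FPKM in siNT cells, and without drug 6.79 and 11.9 FPKM in siSETD2 and 3.66 and 8.33 FPKM in siNT cells. Both siSETD2 libraries lay above both siNT libraries with both drugs and with VE-822 alone, and overlapped them in the other 2 treatments, where R2 exceeded R1. On average DDIT4 rose by 0.64 (SE 0.186, adjusted p = 0.220), with 0.00983 under the block. ALDH18A1 (chr10:95605929-95656706) went the other way. Its levels were 45.4 and 59.00 FPKM in siSETD2 against 53.9 and 76.9 FPKM in siNT cells given both drugs, and 48.2 and 58.7 FPKM in siSETD2 against 70.4 and 82.7 FPKM in siNT cells given HU. In VE-822 alone ALDH18A1 had 62.8 and 64.3 FPKM in siSETD2 and 80.2 and 70.6 FPKM in siNT cells, and without drug 50.7 and 51.1 FPKM in siSETD2 and 65.2 and 71.3 FPKM in siNT cells. siSETD2 lay below siNT without overlap in each treatment but that with both drugs. The fold change of ALDH18A1 was -0.37 (SE 0.0942, adjusted p = 0.163), with 0.0132 under the block. SLC1A5 changed less, with 99.8 and 109.6 FPKM in siSETD2 and 76.4 and 74.9 FPKM in siNT cells given VE-822 alone, where the libraries were furthest apart. Its levels were 127 and 127 FPKM in siSETD2 and 95.4 and 121 FPKM in siNT cells with both drugs, 114 and 139 FPKM in siSETD2 and 95.7 and 126 FPKM in siNT cells with HU, and 122 and 129 FPKM in siSETD2 and 114 and 118 FPKM in siNT cells without drug. SLC1A5 rose by 0.25 (SE 0.0824, adjusted p = 0.289), with 0.0485 under the block. With a block over all 8 groups the adjusted p was 0.0284 for DDIT4, 0.0531 for ALDH18A1 and 0.0978 for SLC1A5. With a block fitted without the VE-822-alone libraries, averaged over the other treatments, it was 0.0586, 0.0628 and 0.314, so none was called. SLC1A5 stood at 0.183 in that last fit.

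CHAC1 and SLC3A2 had larger differences than SLC1A5 but did not pass. CHAC1 differed by 0.43 (SE 0.110, adjusted p = 0.169) and SLC3A2 by 0.41 (SE 0.107, adjusted p = 0.170), with adjusted p-values of 0.05005 and 0.0540 under the block. Among the other ATF4 targets the cystine transporter SLC7A11 rose by 0.89 and the transaminase GPT2 by 0.25 with the block (0.00126 and 0.0449). Upstream of ATF4, 2 of the 15 genes were called, both lower with the block and neither without it, where 2.22% of all genes were lower with the block. These were the eIF2 kinases EIF2AK1 (HRI) and EIF2AK3 (PERK), which fell by 0.27 and 0.25 (0.0268 and 0.0299). The median of the 15 was 0.00715. The aspartyl-tRNA synthetase DARS, which was not among the 40, fell in both fits, by 1.34 (SE 0.201, adjusted p = 0.0439 without the block). Leaving out untreated siSETD2 R2 took the count without the block to 2 of the 39, and a block over all 8 groups gave 1.

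**Figure D4:**
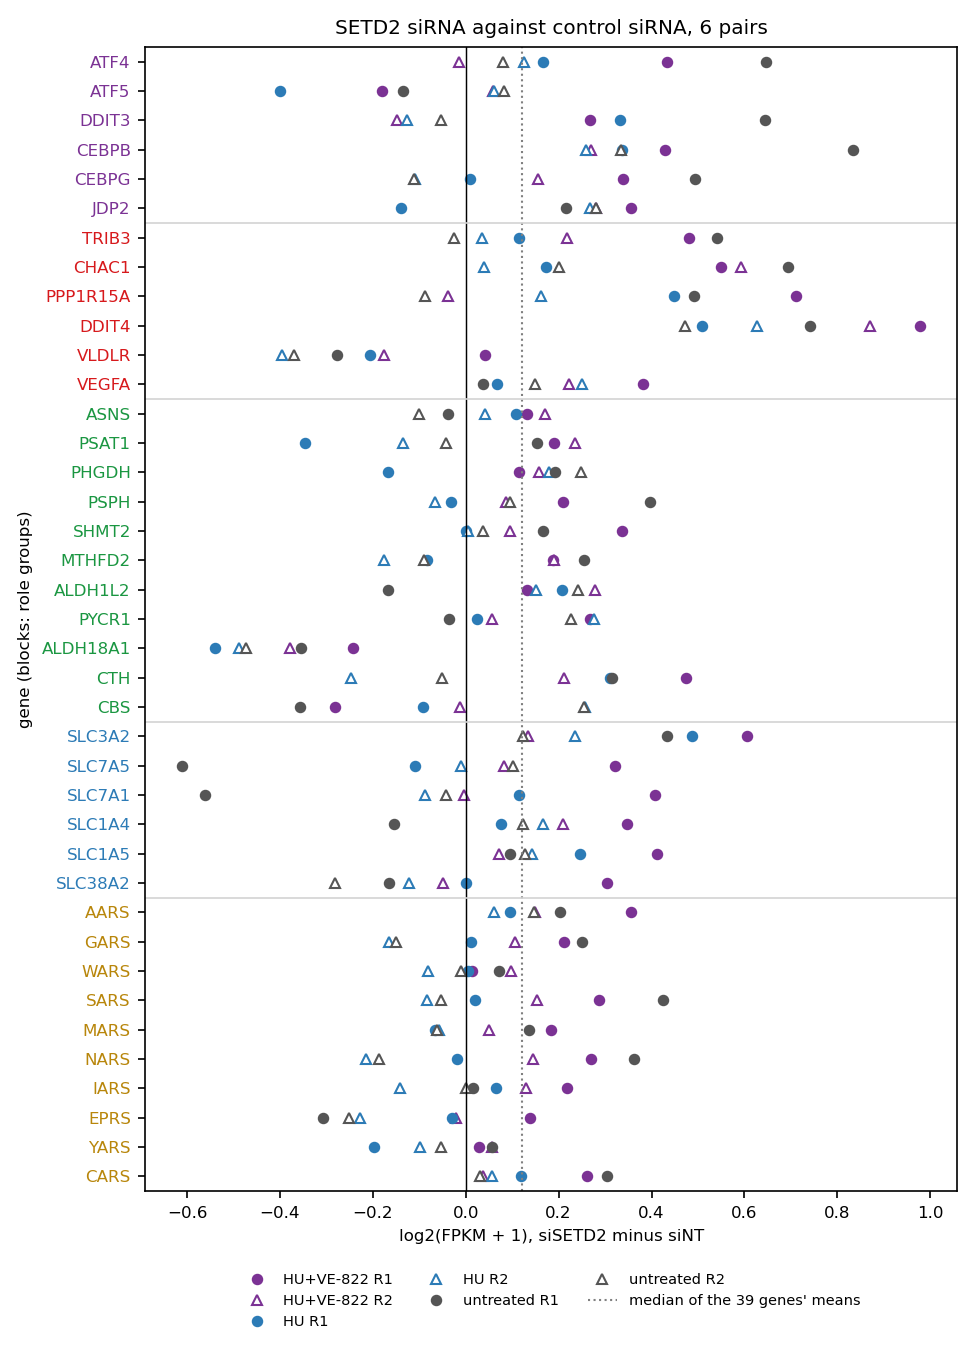
Difference in log2(FPKM + 1) between siSETD2 and siNT for each of the 39 genes in 6 pairs of libraries (purple, HU with VE-822; blue, HU; grey, untreated; filled circles, R1; open triangles, R2), without the VE-822-alone libraries. All 6 points of DDIT4 lie to the right of 0 and all 6 of ALDH18A1 to the left, while untreated R1 lies far to the right for ATF4, DDIT3 and CEBPB.

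Within a single treatment no gene of the 39 was called between the siRNAs by limma in either fit; over all genes the block called 0.0458% in VE-822, all higher, 0.00764% without drug, all lower, and 0% with HU or both drugs. The median difference was 0.20 with both drugs (35 of 39 above 0), 0.0138 in HU (22 of 39), 0.18 in VE-822 alone (36 of 39) and 0.094 without drug (29 of 39). In HU the median was -0.0271 without siNT R1, -0.00661 without siSETD2 R2 and -0.00193 with TMM scaling, so its sign was not settled. With VE-822 alone 26 of the 39 had both siSETD2 libraries above both siNT libraries, where 19.2% of all genes did, and ALDH18A1 and ATF5 had both below, where 23.1% did. SLC3A2, CHAC1 and ASNS differed most there. SLC3A2 had 176 and 205 FPKM in siSETD2 and 112 and 131 FPKM in siNT cells given VE-822. CHAC1 had 2.62 and 3.03 FPKM in siSETD2 and 1.36 and 1.72 FPKM in siNT cells given VE-822. ASNS had 1.89 and 2.02 FPKM in siSETD2 and 0.965 and 1.01 FPKM in siNT cells given VE-822. The differences were 0.65, 0.59 and 0.57, with adjusted p-values of 0.433, 0.489 and 0.162 under the block. Before adjustment, p was under 0.05 for 2 of the 39 with both drugs, 1 in HU, 5 in VE-822 and 1 without drug, and voom made no call.

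In VE-822 alone some of the 39 genes were called higher and some lower, as among all genes. The 4 VE-822-alone libraries stood apart from all others. So the drug and the library set cannot be told apart in any value of this comparison. limma called 11 without the block, 4 higher and 7 lower, where 11.4% and 13.4% of all genes were called higher and lower. With the block it called 25, 10 higher and 15 lower, where 44.9% of all genes were called (20.7% higher and 24.2% lower). The median was -0.0702, and 17 of the 39 were above 0; without untreated siSETD2 R1 the median was 0.0199. Leaving out single libraries took the 11 to between 2 and 18.

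Higher in VE-822 were 2 transporters, ASNS and AARS, the alanyl-tRNA synthetase. SLC1A4 had 15.1 and 14.3 FPKM in siSETD2 and 11.6 and 11.4 FPKM in siNT cells given VE-822, against 4.25 and 8.84 FPKM in siSETD2 and 4.85 and 8.03 FPKM in siNT cells left untreated. SLC38A2 had 167 and 149 FPKM in siSETD2 and 158 and 142 FPKM in siNT cells given VE-822, against 77.9 and 108 FPKM in siSETD2 and 87.5 and 132 FPKM in siNT cells left untreated. SLC1A4, which carries alanine, serine and cysteine, and SLC38A2 did not overlap between the groups, at 0.95 (SE 0.234, adjusted p = 0.0148) and 0.62 (SE 0.196, adjusted p = 0.0402). AARS had 40.04 and 42.4 FPKM in siSETD2 and 35.3 and 37.6 FPKM in siNT cells given VE-822, against 34.6 and 31.96 FPKM in siSETD2 and 29.96 and 28.7 FPKM in siNT cells left untreated. ASNS had 1.89 and 2.02 FPKM in siSETD2 and 0.965 and 1.01 FPKM in siNT cells given VE-822, against 0.629 and 0.987 FPKM in siSETD2 and 0.672 and 1.13 FPKM in siNT cells left untreated. AARS did not overlap either, at 0.30 (SE 0.0834, adjusted p = 0.0250), and ASNS, at 0.40 (SE 0.122, adjusted p = 0.0375), overlapped through siNT cells. Lower in VE-822 were 4 synthesis genes, SLC1A5, GARS and YARS. PSPH had 2.68 and 2.68 FPKM in siSETD2 and 2.03 and 2.08 FPKM in siNT cells given VE-822, against 7.01 and 4.02 FPKM in siSETD2 and 5.09 and 3.70 FPKM in siNT cells left untreated. MTHFD2 had 19.6 and 16.6 FPKM in siSETD2 and 18.2 and 15.3 FPKM in siNT cells given VE-822, against 28.1 and 21.3 FPKM in siSETD2 and 23.4 and 22.8 FPKM in siNT cells left untreated. PSPH, the phosphatase that ends serine synthesis, had the lowest fold change of the 39, -0.80 (SE 0.166, adjusted p = 0.00681), and MTHFD2 had -0.43 (SE 0.104, adjusted p = 0.0131). SHMT2 had 41.2 and 44.1 FPKM in siSETD2 and 37.4 and 38.5 FPKM in siNT cells given VE-822, against 60.2 and 46.3 FPKM in siSETD2 and 53.6 and 45.04 FPKM in siNT cells left untreated. PYCR1 had 31.3 and 35.04 FPKM in siSETD2 and 27.1 and 32.6 FPKM in siNT cells given VE-822, against 42.7 and 43.6 FPKM in siSETD2 and 43.8 and 37.2 FPKM in siNT cells left untreated. Neither of these overlapped, and SHMT2 and PYCR1 changed by -0.33 and -0.40 (adjusted p = 0.0353 and 0.0128). SLC1A5 had 99.8 and 109.6 FPKM in siSETD2 and 76.4 and 74.9 FPKM in siNT cells given VE-822, against 122 and 129 FPKM in siSETD2 and 114 and 118 FPKM in siNT cells left untreated. GARS had 49.2 and 47.3 FPKM in siSETD2 and 50.3 and 42.5 FPKM in siNT cells given VE-822, against 74.5 and 53.6 FPKM in siSETD2 and 62.5 and 59.6 FPKM in siNT cells left untreated. YARS had 14.5 and 15.99 FPKM in siSETD2 and 15.1 and 14.8 FPKM in siNT cells given VE-822, against 21.3 and 17.4 FPKM in siSETD2 and 20.5 and 18.1 FPKM in siNT cells left untreated. All 3 lay below the untreated libraries without overlap, at -0.43, -0.39 and -0.33 (adjusted p = 0.0220, 0.0420 and 0.0163). In all, 4 of the 39 had all 4 VE-822 libraries above all 4 untreated ones (14.6% of all genes) and 9 had all 4 below (16.5%).

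The replicate block added 14 calls in VE-822 alone. Higher were ATF5 (8.003 to 8.92 FPKM in VE-822 against 5.45 to 6.90 FPKM untreated), JDP2 (2.54 to 4.37 FPKM in VE-822 against 1.41 to 2.96 FPKM untreated) and DDIT4 (8.60 to 14.2 FPKM in VE-822 against 3.66 to 11.9 FPKM untreated). VEGFA (8.29 to 12.4 FPKM in VE-822 against 6.78 to 9.46 FPKM untreated), PHGDH (9.76 to 12.3 FPKM in VE-822 against 6.29 to 12.6 FPKM untreated) and SLC7A1 (41.5 to 56.2 FPKM in VE-822 against 28.5 to 45.3 FPKM untreated) were higher as well. Of these 6, ATF5 did not overlap between the groups. Lower were CTH (1.99 to 2.71 FPKM in VE-822 against 3.21 to 6.03 FPKM untreated), CBS (1.85 to 1.95 FPKM in VE-822 against 1.85 to 4.34 FPKM untreated), PSAT1 (7.59 to 10.7 FPKM in VE-822 against 9.83 to 12.1 FPKM untreated) and TRIB3 (9.99 to 12.1 FPKM in VE-822 against 11.7 to 18.9 FPKM untreated). The synthetases SARS (40.6 to 45.7 FPKM in VE-822 against 43.5 to 68.3 FPKM untreated), WARS (7.33 to 8.74 FPKM in VE-822 against 8.26 to 12.6 FPKM untreated), NARS (39.03 to 47.3 FPKM in VE-822 against 44.8 to 71.9 FPKM untreated) and IARS (24.99 to 32.1 FPKM in VE-822 against 32.97 to 37.1 FPKM untreated) were lower too. Of these 8, CTH and IARS did not overlap between the groups. ATF4 was called in neither fit, at 0.0390, nor were DDIT3 at -0.19 and CHAC1 at -0.0702. PSAT1, PSPH, MTHFD2, CTH and WARS were thus called lower in VE-822 alone and higher with both drugs under the block, each against the same untreated libraries. Of the 10 other cytosolic synthetases, KARS and TARS were lower without the block, at -0.53 and -0.33, where 13.4% of all genes were lower. Of the 15 upstream genes 4 were called without the block, where 24.7% of all genes were, so the count was near that share. PPP1R15B and IMPACT were higher and EIF2AK4 (GCN2) and EIF2S3 lower, at 0.51, 0.35, -0.55 and -0.43.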

How the data were processed

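RNA from 16 U2OS libraries, 8 groups of 2, was measured as FPKM in 1 table deposited by the authors, with 58735 genes. Per the submitters' processing notes reads were handled with STAR 2.6.1d, FastQC, DESeq2 1.26.0 and featureCounts 1.5.0-p3 on hg38. Their settings, and the strand mode of counting, were not given in the sources used here. Each gene identifier occurs in GENCODE release 29, whose GRCh38 positions and exon lengths were used. The FPKM values came back to whole fragments (100% within 0.01) and carry depth scaling by the authors of 0.940 to 1.07 times each library's total.

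Groups came from the sample titles. Values were tested as log2(FPKM + 1) in limma 3.58.1 (R 4.3.3) with 1 mean per group and 8 residual degrees of freedom, in the 13088 genes that averaged 1 FPKM or more. The p-values were adjusted by Benjamini-Hochberg over those genes. R1 minus R2 correlated at 0.363 to 0.746 in 15 group pairs outside VE-822 alone (6 groups). The correlation was -0.0517 to 0.295 in 12 pairs that held 1 VE-822-alone group, and 0.395 between both VE-822-alone groups. No label ties a number to a culture or day. The replicate block is therefore a term in those 6 groups. The fit was tested on simulated data. Members, gene lists and the naming rule were chosen with earlier results of these data known: genes called in a comparison, or among the 3 largest in 5 of them, have their values given, and the rest are counts and ranges. Alternatives were 2 pseudocounts, 2 filters, 2 scalings, voom on the recovered fragments, 3 blocks, leaving out each library and leaving out the VE-822-alone libraries, the last without a block being added after seeing the data. Promoters are RefSeq's on GRCh38.p14.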

Additional observations from a re-analysis of the deposited data

How the results depend on the processing

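No fold change of a named member that was called changed sign under any alternative run. The median over the members, which was not tested, changed sign in 2 comparisons: VE-822 against untreated (0.0199 without untreated siSETD2 R1) and siSETD2 against siNT in HU (-0.0271 without siNT R1 in HU, -0.00661 without siSETD2 R2 in HU and -0.00193 with TMM scaling). The 1315 fold changes of named members under the alternatives were compared with the fit without the block. Of these, 1173 kept the side of the threshold they had in that fit, 86 passed it only under the alternative and 56 no longer passed it. That fit called members in VE-822 alone only, so many of the 1173 were not called in either. Runs other than the blocks were fitted without a block, so calls made only with the block were not put to them. Counts of members called moved most with the replicate block. The block in 6 groups gave 5 in HU with VE-822 against HU, 17 in HU with VE-822 against untreated, 1 in HU, 25 in VE-822 and 3 in siSETD2 averaged over treatments, where the fit without it gave 0, 0, 0, 11 and 0; it changed no other count. A block over 8 groups gave 1, 8, 21 and 1 for HU with VE-822 against HU, the same against untreated, VE-822 and siSETD2, and a block without the VE-822-alone libraries gave 1 and 8 for the HU with VE-822 comparisons; both gave 0 in HU. Scaling to library totals gave 2 for HU with VE-822 against untreated, and no filter gave 7 for VE-822. Leaving out single libraries gave 0 to 2 for siSETD2 averaged (2 without untreated siSETD2 R2), 0 to 1 for siSETD2 without drug (the same library), 0 to 5 for HU with VE-822 against untreated (5 without untreated siSETD2 R1) and 2 to 18 for VE-822. For VE-822 they were 2 without untreated siNT R1, 6 and 3 without siNT R1 and R2 in VE-822, 18 without untreated siSETD2 R2, and 2 and 4 without siSETD2 R1 and R2 in VE-822. The cause of these moves was not tested. A group left with 1 library was assumed to vary like the others. Precision is limited by 2 libraries per group, and for ASNS, ALDH1L2 and STC2 by levels near or below 1 FPKM.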

Other observations

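R1 and R2 differed for many of the 39 genes in the same direction across the 6 groups other than VE-822 alone. DDIT3, TRIB3, PSPH, CTH and the synthetases AARS, GARS, WARS, SARS and NARS were higher in R1 in all 6 groups, 9 in all, where 17.5% of all genes were. ATF5, JDP2, DDIT4, ASNS, PSAT1, PHGDH, ALDH18A1 and the transporters SLC7A5, SLC7A1, SLC1A4 and SLC38A2 were the 11 lower in R1 in all 6, where 19.2% of all genes were. So the synthetases held 5 of the 9 and the transporters 4 of the 11. ATF4 itself was higher in R1 in 2 of the 6 groups.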
